A study of Rattus norvegicus with 18 samples.

Results

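A set of 5 genes whose products act on newly made collagen were followed through fracture healing in the rat femur: Lox, Serpinh1, P4ha1, Plod2 and Pcolce. They were chosen by name, as enzymes and helpers of collagen processing and cross-linking, and make up 5 of the 4736 genes with a single symbol on the Affymetrix Rat U34A array. Lox had 4 probe sets and each of the other genes had 1, giving 8 of the 8740 probe sets tested.

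The study compared female Sprague-Dawley rats of 3 ages, young (6 weeks old at fracture), adult (26 weeks) and older (52 weeks), at 3 days and at 1, 2, 4 and 6 weeks after a closed mid-shaft fracture of a femur that carried an intramedullary rod. Femora of sham rats of each age, taken at 0 time without fracture, served as the control, given here as no fracture or intact. The sample was the middle part of the shaft with callus, cortical bone and marrow, and the 18 arrays used here, labelled as 1 series of the study's arrays, were each made from the pooled RNA of 2 rats (36 rats in all). Each age and time thus had 1 array, so that the 3 ages stood in as replicates of a time and the p-values measure only the spread among these arrays. No genotype or drug differed between the groups, and time and age of the animal at harvest move together.

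Fibrillar collagen chains are modified while still inside the endoplasmic reticulum, fold into a triple helix there, lose their end propeptides once secreted, and are then cross-linked into fibrils. Hydroxylated proline steadies the helix, hydroxylated lysine at the chain ends sets the kind of cross-link that can form, and the cross-links give callus and bone their tensile strength. The prolyl and lysyl hydroxylases need molecular oxygen, and P4ha1, Plod2 and Lox are known as targets of hypoxia-inducible factor in other cells.

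The bases before the transcription start are shown because the members moved together on the arrays and because hypoxia or heat shock elements are known from some genes of collagen processing. RefSeq promoter sequences (build GRCr8) were matched for 4 of the 5 genes, P4ha1, Plod2, Serpinh1 and Pcolce. Capitals mark matches, on either strand, to the hypoxia response core (ACGTG or GCGTG, read as CACGT or CACGC on the other strand), the GC box (GGGCGG or CCGCCC) and the heat shock half-site pair (GAANNTTC). The 250 bases before the annotated start were chr8:101964068-101964317 (plus strand) for Plod2, chr20:27844796-27845045 (plus strand) for P4ha1 and chr12:24720722-24720971 (plus strand) for Pcolce. The start that RefSeq's promoter table gives lies inside the gene's annotated extent for P4ha1, far downstream of its first base, and for Serpinh1, so that distances for these genes are counted from an internal start and longer transcripts begin elsewhere. For Serpinh1 only the 30 bases at chr1:163062988-163063017 (minus strand), around its heat shock match, are printed.
Plod2: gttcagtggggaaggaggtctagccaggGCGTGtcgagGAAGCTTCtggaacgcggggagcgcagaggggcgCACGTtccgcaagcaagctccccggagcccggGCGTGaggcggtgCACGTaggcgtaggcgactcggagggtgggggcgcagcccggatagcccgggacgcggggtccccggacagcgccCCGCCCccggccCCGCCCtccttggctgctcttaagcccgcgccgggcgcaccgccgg
P4ha1: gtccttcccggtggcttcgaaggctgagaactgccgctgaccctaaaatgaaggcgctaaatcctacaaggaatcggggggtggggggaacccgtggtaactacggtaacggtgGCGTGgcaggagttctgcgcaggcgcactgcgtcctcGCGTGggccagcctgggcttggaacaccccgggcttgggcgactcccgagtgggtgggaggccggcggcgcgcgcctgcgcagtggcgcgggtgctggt
Pcolce: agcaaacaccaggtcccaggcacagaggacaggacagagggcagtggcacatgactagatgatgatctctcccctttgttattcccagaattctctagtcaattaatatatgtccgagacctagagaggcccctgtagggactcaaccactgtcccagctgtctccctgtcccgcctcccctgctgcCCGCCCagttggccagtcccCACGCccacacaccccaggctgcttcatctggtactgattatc
Serpinh1: ccaactttccaGAAGTTTCttaggacaggc

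The Plod2 window held 4 hypoxia cores, which began 222, 178, 146 and 133 bases before the start, together with 2 GC boxes and 1 heat shock match at 212 bases. P4ha1 held 2 hypoxia cores, at 136 and 99 bases. Serpinh1, which encodes a heat shock protein, had its heat shock match at 30 bases and a GC box at 129 bases, and Pcolce had 1 hypoxia core at 43 bases and 1 GC box at 63 bases. These letters are common: of 33469 rat promoters of the same length, 36.7% held a hypoxia core, 30.5% a GC box and 7.2% the heat shock pattern. The matched windows were also rich in G and C, at 74.8% for Plod2, 67.6% for P4ha1, 60.4% for Serpinh1 and 56.0% for Pcolce, against a median of 51.2% over all promoters. No CCAAT box (CCAAT, in 34% of promoters), TATA box (TATAAA, 12.9%) or AP-1 element (TGAGTCA or TGACTCA, 4.0%) was found in the 4 windows. A match is a description of the sequence and was not tested as a binding site.

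Array signals are on the linear scale of the Affymetrix software, with the average of each array set to 500, and signals of different genes cannot be set against each other as amounts of mRNA. All 90 values of the members' leading probe sets, those with the highest mean log2 signal for each gene, lay above the floor of 20 that was applied to low signals, from 189 to 12819. The members are taken in the order in which they act.

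P4ha1 encodes the catalytic alpha subunit of prolyl 4-hydroxylase, which hydroxylates proline so that the collagen helix is stable at body temperature. The young rats had a signal of 747 without fracture, 3728 at 3 days, 1804 at 1 week, 2338 at 2 weeks, 1269 at 4 weeks and 656 at 6 weeks. The adult rats had 375, 3666, 2095, 2331, 1812 and 1957 at the same times. The older rats had 387, 3812, 2135, 2360, 1600 and 1564. P4ha1 was highest at 3 days at every age, and its 3 arrays at that time lay within 1.04-fold of each other. It was the member with the steepest early decline, from 3735 ± 73.4 (SD, n = 3) at 3 days to 2011 ± 180 (SD, n = 3) at 1 week, but this step did not pass the adjustment over all probe sets (log2 change -0.90, SE 0.35, limma adjusted p = 0.25). By 6 weeks the young rats were at 0.878 of their intact signal, while the adult rats were still 5.22-fold and the older rats 4.04-fold above theirs.

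Plod2 encodes the lysyl hydroxylase that acts on the telopeptides, the short chain ends where cross-links start. Its signals in the young rats were 1797 in the intact femur and 5271, 3447, 3194, 2962 and 1474 at the successive times after fracture. In the adult rats they were 967, followed by 5838, 3927, 3018, 2131 and 3191. In the older rats they were 559, followed by 4471, 3715, 3733, 3188 and 2696. Plod2 also had its highest signal at 3 days at all 3 ages, and at 6 weeks the young array had fallen below its intact value (0.82 of it). The adult array at 6 weeks was higher than at 4 weeks, a difference between single arrays.

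Serpinh1 encodes HSP47, the collagen-specific chaperone that holds the folded helix on its way out of the endoplasmic reticulum. The young rats rose from 3947 without fracture to 11853 at 3 days, 9554 at 1 week and 12819 at 2 weeks, and then came down to 6439 at 4 weeks and 3817 at 6 weeks. The adult rats went from 460 to 12365, 10398, 11438, 10507 and 8993. The older rats went from 529 to 12269, 10904, 9931, 6851 and 7796. The 3 ages met at nearly one value at 3 days, 12162 ± 272 (SD, n = 3), after intact signals that differed 8.59-fold. At 6 weeks the young array was back at its intact level (0.967 of it), and the adult array was 19.6-fold and the older array 14.7-fold above theirs.

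Pcolce encodes the procollagen C-endopeptidase enhancer, a secreted protein that speeds removal of the C-propeptide. Young rats had signals of 1516 without fracture and 3624, 3730, 5189, 2517 and 1990 from 3 days to 6 weeks. Adult rats had 415 and then 4129, 3639, 4048, 3569 and 3408. Older rats had 239 and then 3520, 3650, 3748, 2492 and 2393. Among the fractured times Pcolce had the smallest late against early change of the 5 members. Its highest array was at 2 weeks in the young and older rats and at 3 days in the adult rats, and at 1 week the 3 ages lay within 1.02-fold of each other.

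Lox encodes lysyl oxidase, the extracellular copper enzyme that oxidises lysine and hydroxylysine so that collagen and elastin can be cross-linked. With its leading probe set, the young rats had signals of 1350 in the intact femur and 5499, 4154, 4215, 2574 and 1928 after fracture. The adult rats had 268, then 6378, 4794, 4064, 3354 and 3175. The older rats had 189, then 5668, 4675, 3671, 2722 and 2956. On this probe set every fractured array was above every intact array, and the highest array at each age was that at 3 days. In the young rats this probe set was still 1.43-fold above its intact level at 6 weeks, whereas the other 3 Lox probe sets were below theirs (309 against 436, 627 against 1878 and 87 against 141).

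**Figure D1:**
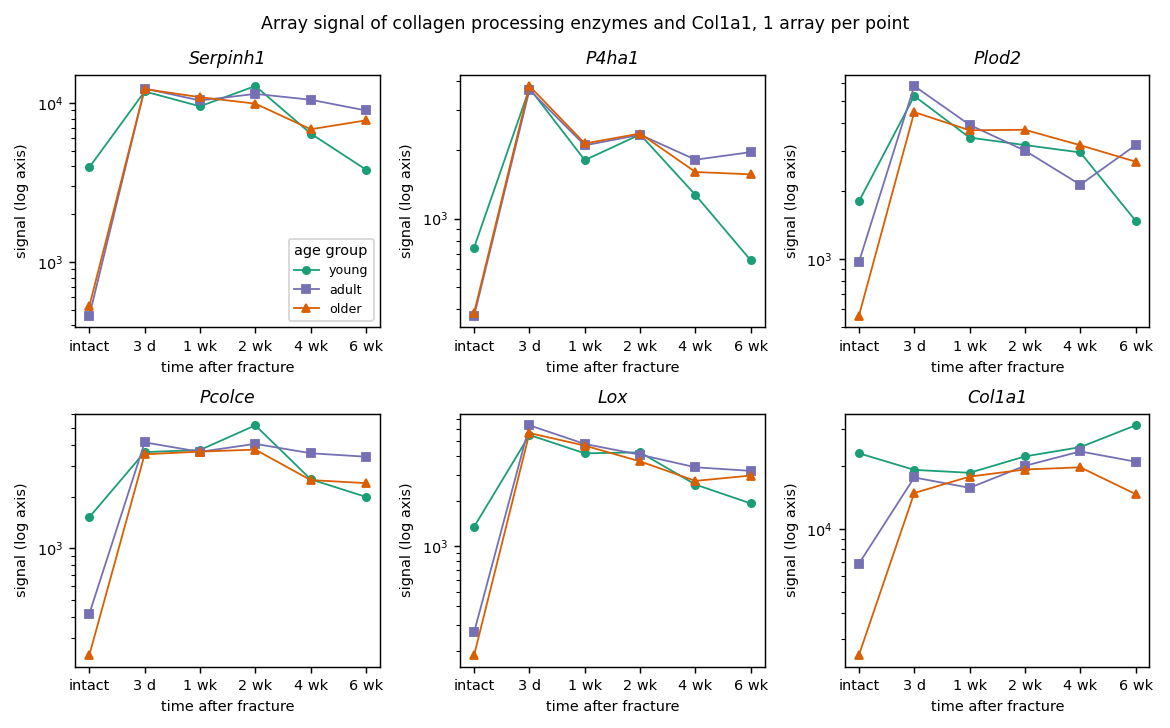
Signal of the leading probe set of each member and of Col1a1 (log axis, arbitrary units) against time after fracture, with 1 point per array and 1 line per age group. The 3 ages start apart in the intact femur, with the young rats highest, and lie close together at 3 days.

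The question put to these arrays was how gene activity in the bone changed after fracture and whether age altered it. Against the intact femur, all 5 genes rose at 3 days: Lox 14.3-fold, Serpinh1 12.3-fold, P4ha1 7.83-fold, Pcolce 7.04-fold and Plod2 5.21-fold (limma, adjusted p = 0.000277, 0.00134, 0.000111, 0.000803 and 0.000657). Over all probe sets, 18.9% were called higher at that time, and the median log2 change was -0.08. The 3 arrays at 3 days were all above the 3 intact arrays for 5 of 5 members, as they were for 21.4% of all probe sets. In bulk samples of bone, more cells of a type and more RNA per cell cannot be told apart.

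The 5 genes stayed above the intact femur for weeks. At 1 week 5 of 5 passed (18% of all probe sets), with Lox 11.1-fold, Serpinh1 10.4-fold, Pcolce 6.9-fold, P4ha1 4.21-fold and Plod2 3.73-fold higher. At 2 weeks 5 of 5 passed (16.1% of all probe sets), from 11.5-fold for Serpinh1 to 3.33-fold for Plod2, and at 4 weeks 5 of 5 passed (11.5%), from 7.84-fold for Serpinh1 to 2.75-fold for Plod2. The groups did not overlap for any of the 5 members at 1, 2 or 4 weeks, which held for 22%, 19.3% and 15.5% of all probe sets. At 6 weeks 4 of 5 passed (8.34% of all probe sets): Serpinh1 was 6.53-fold, Lox 6.42-fold, Pcolce 4.76-fold and P4ha1 2.65-fold higher, whereas Plod2, with a log2 change of 1.24 (SE 0.38), had an adjusted p of 0.0519. At that time, on the leading probe sets, only Lox and Pcolce had no overlap with the intact arrays (2 of 5 members and 12% of all probe sets); the young arrays of Serpinh1, P4ha1 and Plod2, and of the other 3 Lox probe sets, lay below the young intact array.

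**Figure D2:**
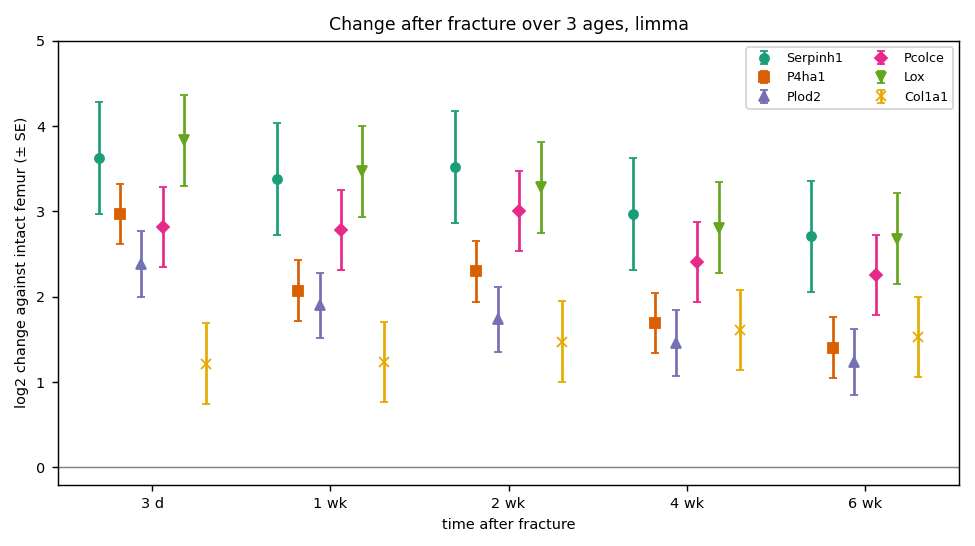
Log2 change of each member and of Col1a1 against the intact femur at 5 times after fracture, estimated over the 3 ages; bars are the standard error of the limma fit. The members lie between 1.24 and 3.83, and the bars are widest for Serpinh1, at 0.65.

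Many of these calls were lost when the adult or the older rats were left out, a step that also takes arrays from the fit. Without the adult rats, 3 of 5 members passed at 3 days, 0 at 1 week, 1 at 2 weeks, 0 at 4 weeks and 0 at 6 weeks, and without the older rats 0 passed from 1 week on. Calls over all probe sets, in both directions, fell as well without the adult rats, from 3437 to 1742 at 3 days, from 3126 to 1051 at 1 week and from 1855 to 37 at 4 weeks, so the loss is not particular to the members. At 6 weeks 1 member passed without either the intact or the 6-week array of the adult rats, and 2 without either of these arrays of the older rats. With the actin 3'/5' signal ratio, a measure of RNA or labelling quality, as a covariate, 2 of 5 passed at 3 days and at 1 week and 0 at 2 and 4 weeks; among intact arrays this ratio lay between 2.1 and 2.61. After fracture it lay between 1.48 and 1.9, except at 6 weeks in the young (2.72) and the adult rats (2.27), and its part in the changes was not tested further.

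The other 3 Lox probe sets also rose after fracture, with other sizes and in part another peak time. The highest array was that at 1 week, not 3 days, in older rats on 2 of them (9819 against 7426, and 543 against 469) and in adult rats on 1 (459 against 428). At 3 days they were 10.2-fold, 20.8-fold and 65.1-fold higher than in the intact femur, against 14.3-fold with the leading one, and all 4 passed at 3 days and at 1, 2 and 4 weeks. The largest fold came from a probe set whose intact signals were 1878 in the young, 22.8 in the adult and 59.3 in the older rats, close to the floor in both adult and older rats. At 6 weeks the 4 probe sets disagreed: the leading one was 6.42-fold higher (adjusted p = 0.00884), whereas the others were 8.69-fold (0.0982), 2.96-fold (0.0609) and 1.83-fold (0.264) higher and did not pass. The dimmest probe set had signals of 87 to 89 at 6 weeks, and its older intact signal of 10.9 was raised to the floor, which lowers its folds.

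No member passed between successive times in limma. The count was 0 of 5 for each step, from 3 days to 1 week (3.5% of all probe sets, either direction), from 1 to 2 weeks (0.103%), from 2 to 4 weeks (1.6%) and from 4 to 6 weeks (0.0915%), and on the leading probe sets the only step with an unadjusted p under 0.05 was the decline of P4ha1 from 3 days to 1 week. When the mean of 4 and 6 weeks was set against the mean of 3 days and 1 week, P4ha1 fell 1.96-fold (log2 change -0.97, SE 0.25, adjusted p = 0.0187), 1 member of 5 beside 10.8% of all probe sets lower. The other estimates were -0.91 (SE 0.38) for Lox, -0.79 (SE 0.27) for Plod2, -0.66 (SE 0.46) for Serpinh1 and -0.47 (SE 0.33) for Pcolce, with adjusted p-values of 0.116, 0.0607, 0.364 and 0.366. The count fell to 0 without the adult rats, without the older rats or with the actin ratio as a covariate, and it was 5 without the young intact array.

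The same estimates have smaller errors when only the 15 fractured arrays enter the fit, a choice made after the data had been seen. All 5 members then passed as lower late than early, against 13% of all probe sets: Lox -0.91 (SE 0.10, adjusted p = 0.000297), P4ha1 -0.97 (SE 0.19, 0.00634), Plod2 -0.79 (SE 0.18, 0.0136), Pcolce -0.47 (SE 0.13, 0.0264) and Serpinh1 -0.66 (SE 0.18, 0.0294). Between the successive times 0 of 5 passed in that fit as well. Among the other Lox probe sets, 2 fell in the fit of all 18 arrays, by 1.90 and 2.09 on the log2 scale (adjusted p = 0.0031 and 0.00226), and the third, by 2.45 (0.0575), did not pass.

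The ages differed most in the intact bone for 4 of the 5 members, and for P4ha1 at 6 weeks. Young rats had the highest intact signal for all 5 members, and the highest age exceeded the lowest 8.59-fold for Serpinh1, 7.14-fold for Lox, 6.34-fold for Pcolce, 3.22-fold for Plod2 and 1.99-fold for P4ha1. At 3 days the same ratio was 1.04 for Serpinh1 and P4ha1, 1.16 for Lox, 1.17 for Pcolce and 1.31 for Plod2. It widened again to 1.65 for Lox, 1.71 for Pcolce, 2.17 for Plod2, 2.36 for Serpinh1 and 2.98 for P4ha1 at 6 weeks, where the adult array was the highest and the young array the lowest for every member. With 1 array for each age and time, no single one of these differences could be tested.

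**Figure D3:**
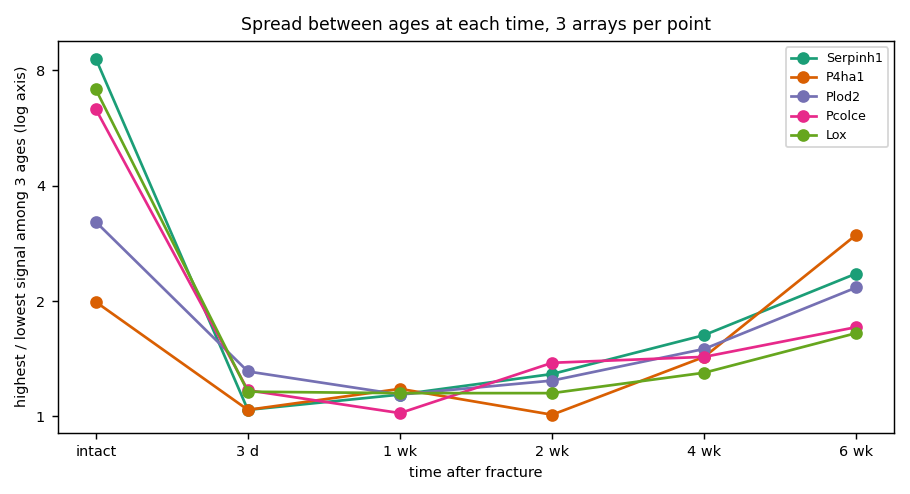
Highest signal divided by lowest signal among the 3 ages for each member (log axis, 3 arrays per point) against time after fracture. The ratio is 1.99 to 8.59 in the intact femur, 1.04 to 1.31 at 3 days and 1.65 to 2.98 at 6 weeks.

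Over all 6 times, no member passed between ages. In older against young rats 0 of 5 passed (0.446% of all probe sets), with log2 differences from -0.49 (95% interval -1.22 to 0.24) for Pcolce to 0.15 (-0.40 to 0.71) for P4ha1. In adult against young rats 0 of 5 passed (0.0801%), from -0.19 (-1.21 to 0.83) for Serpinh1 to 0.21 (-0.34 to 0.77) for P4ha1. In older against adult rats 0 of 5 passed in limma, beside 0% of all probe sets, of which 600 had an unadjusted p under 0.05; no member had one in any of the 3 age comparisons. Among the fractured arrays alone, a fit added after the data had been seen, the members' differences between older and young rats ran from -0.06 (SE 0.14) for Pcolce to 0.38 (SE 0.21) for P4ha1, and again 0 of 5 passed in each age comparison.

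The response to fracture, the mean of the 5 fractured times over the intact femur, was set against that of the young rats in an age-by-fracture fit. Each age had 1 intact array, so the errors and p-values come from the spread of the fractured arrays alone and assume that intact arrays vary to the same extent, which was not measured. On that assumption 3 members passed. In older against young rats the difference in log2 response was 2.98 (SE 0.26, adjusted p = 0.000176) for Lox, 3.10 (SE 0.49, 0.00975) for Serpinh1 and 2.61 (SE 0.34, 0.00323) for Pcolce, 3 of 5 members beside 3.2% of all probe sets. In adult against young rats it was 2.62 (SE 0.26, 0.000204) for Lox, 3.49 (SE 0.49, 0.00249) for Serpinh1 and 2.08 (SE 0.34, 0.00634) for Pcolce, again 3 of 5 beside 6.45% of all probe sets. The hydroxylases did not pass: Plod2 differed by 1.90 (SE 0.49, 0.0867) and 1.07 (SE 0.49, 0.293), and P4ha1 by 1.32 (SE 0.51, 0.27) and 1.45 (SE 0.51, 0.163). Without the young array at 6 weeks all 5 members passed in older against young rats. With all arrays, 11 of 18 collagens and matrix partners and 3 of 6 fibroblast markers passed as higher in that comparison. Of 15 other collagen biosynthesis genes 0 passed.

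Each response is counted from the 1 intact array of its age, as single folds of Lox and Serpinh1 show. At 3 days Lox was 30-fold above the intact femur in older, 23.8-fold in adult and 4.08-fold in young rats, and Serpinh1 was 23.2-fold, 26.9-fold and 3-fold above it, although the signals at 3 days were nearly the same. The leading probe set of Col1a1, the alpha 1 chain of type I collagen, behaved in the same way. Its log2 response differed by 2.78 (SE 0.33) in older and 1.51 (SE 0.33) in adult against young rats. The other Col1a1 probe sets differed by 1.70, 1.51 and 0.54 in older and, in the same order, by 1.38, 1.14 and -0.21 in adult against young rats. For the other 3 Lox probe sets the older against young difference passed in all 3, and the adult against young difference in 1.

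Col1a1 itself was at 22884 in the intact femur of the young, 6846 in the adult and 2521 in the older rats, and between 14648 and 31075 after fracture. The paper ties good correlation of arrays with RT-PCR to signals clear of the detector's upper limit, among other conditions. Whether Col1a1 signals of this size came near that limit, which would distort the ratios to it, was not tested. Its log2 change at 3 days was 1.22 (SE 0.47, adjusted p = 0.0613), and it passed at 2 and 4 weeks, at 2.78-fold and 3.05-fold. Its other 3 probe sets changed by 0.66, 0.60 and -0.33 at 3 days; 2 of them passed at 2 and 6 weeks and the remaining one at no time, so the ratios that follow depend on the Col1a1 probe set used. Set against the leading Col1a1 signal of the same array, all 5 members rose at 3 days: Lox by 2.62 on the log2 scale (SE 0.54, adjusted p = 2.03e-05), Serpinh1 by 2.41 (SE 0.55, 0.000172), P4ha1 by 1.75 (SE 0.53, 0.00457), Pcolce by 1.60 (SE 0.54, 0.00967) and Plod2 by 1.16 (SE 0.54, 0.0498). Higher in this sense were 2.17% of all probe sets, whose median was -1.29. Of 17 collagens and matrix partners measured, 7 were higher, among them Col11a1 by 1.8 and Col5a1 by 1.79, and 1 was lower. Of 15 other collagen biosynthesis genes, 1 was higher and 1 lower. In this fit limma gave the variance prior infinite weight. Each error thus came from the trend over all probe sets, not from the gene's own spread, and the errors were nearly equal. Adjusted p-values just under 0.05, as for Plod2, are therefore the least secure.

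**Figure D4:**
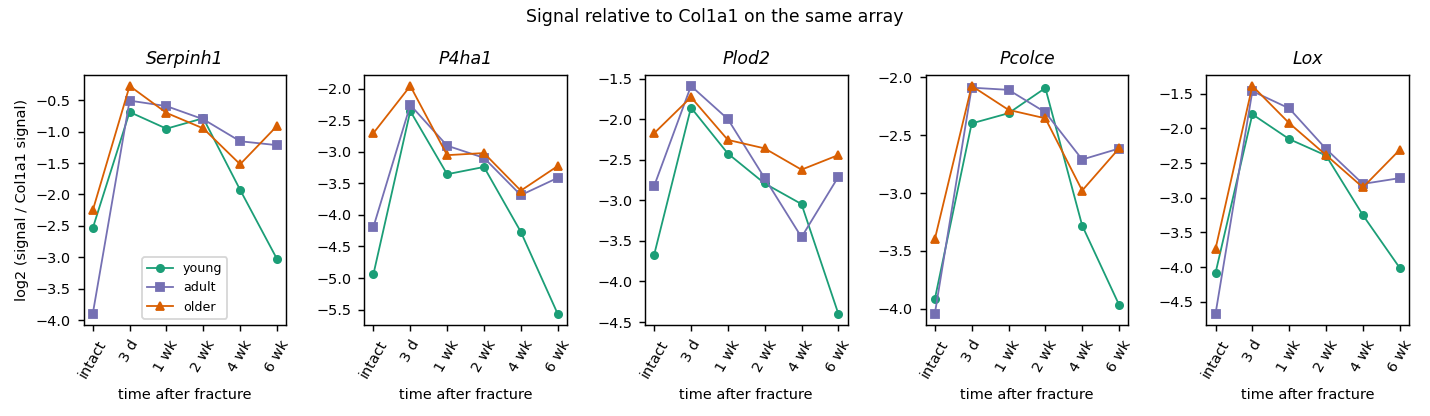
Log2 of each member's signal over the Col1a1 signal of the same array against time after fracture, 1 line per age; the vertical scale differs between panels. All 15 lines are higher at 3 days than in the intact femur, and the young rats end lowest at 6 weeks.

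The ratio then declined for 3 members. Late against early it fell by 1.31 for P4ha1 (SE 0.38, adjusted p = 0.0108), 1.25 for Lox (SE 0.38, 0.019) and 1.14 for Plod2 (SE 0.38, 0.0405), 3 of 5 members beside 5.37% of all probe sets lower. For Serpinh1 the log2 change was -1.01 (SE 0.39, 0.102) and for Pcolce -0.82 (SE 0.38, 0.213), neither of which passed, and Col1a1 itself changed by 0.34 (SE 0.33, adjusted p = 0.533). All probe sets share the noise of the Col1a1 signal here, and the errors again came from the trend over all probe sets. The 3-day calls fell to 0 of 5 without the adult rats or with the actin ratio as a covariate, and to 2 without the adult intact array. The late calls fell to 0 with quantile normalization, with the actin ratio, without the adult rats and when any one of 5 single arrays was left out (young at 3 days, 1 week or 6 weeks, adult at 1 week, older at 4 weeks), and to 1 without the young rats, the adult array at 3 days or that at 4 weeks.

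Most of the other biosynthesis genes measured were also higher at 3 days. Of a list of 41 further genes for collagen biosynthesis, 15 were measured, and 12 were higher and 1 lower at 3 days, with a median log2 change of 1.33 against -0.08 over all probe sets. P3h4, a component of the endoplasmic reticulum complex that hydroxylates collagen, was 18.2-fold higher, and Ppib, the proline isomerase of the same compartment, 4.13-fold. Pdia4 and Pdia3, disulphide isomerases, were 3.87-fold and 3.73-fold higher, Plod1, the lysyl hydroxylase of the helix, 3.31-fold, and P4hb, the partner subunit of P4ha1, 2.97-fold. Loxl1, a relative of Lox, was 1.97-fold higher. The 1 gene that fell was Furin, a proprotein convertase, which was 2.55-fold lower.

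In that list 11 genes were higher and 2 lower at 1 week, 10 and 1 at 2 weeks, 5 and 2 at 4 weeks and 3 and 1 at 6 weeks. Late against early, 8 of the 15 fell and none rose, among them P3h4 by 3.71-fold, Pdia3 by 2.15-fold and P4hb by 1.57-fold. Of 31 collagens and small matrix partners, 18 were measured, and 12, 15, 15, 14 and 13 were higher from 3 days to 6 weeks, none was lower, and only Col8a1 and Fmod fell late against early. At 3 days Col11a1, Col5a1 and Col12a1, collagens that regulate or coat fibrils, were 8.08-fold, 8.02-fold and 6.61-fold higher. Col5a2 and Col3a1 were 5.84-fold and 3.61-fold higher. Col1a2 (1.51-fold, limma adjusted p = 0.173) and Col2a1 (5.38-fold, 0.0861) did not pass at 3 days.

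**Figure D5:**
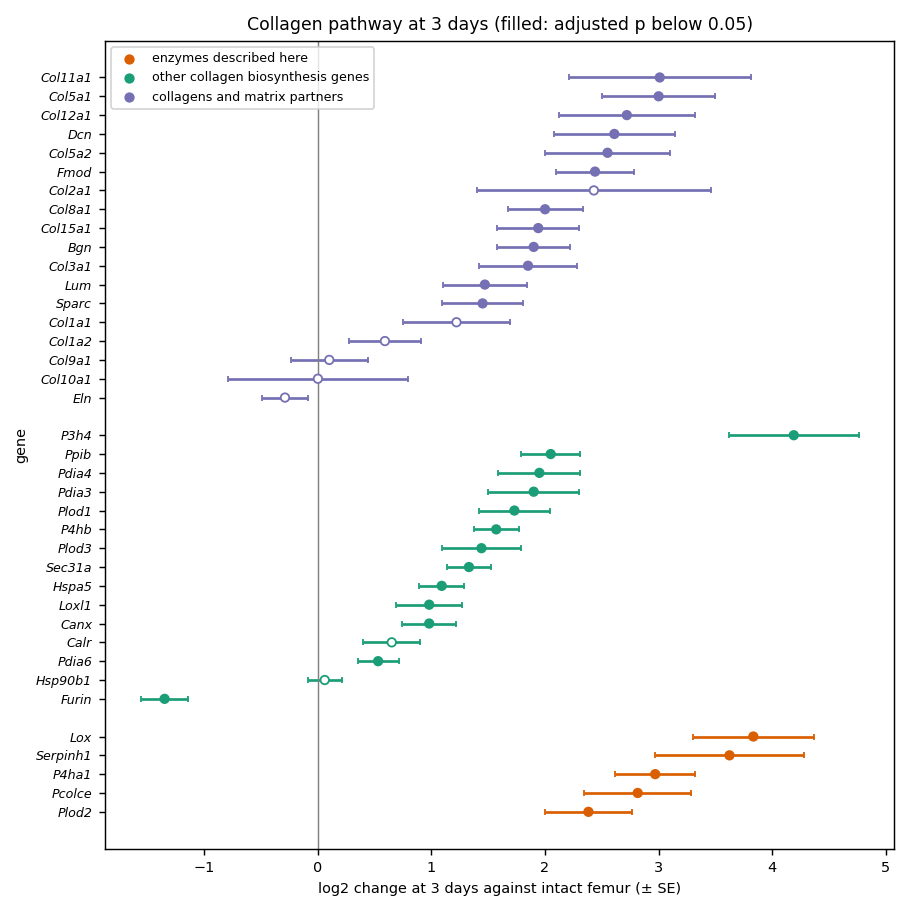
Log2 change at 3 days against the intact femur for the 5 members, 15 other collagen biosynthesis genes and 18 collagens and matrix partners; bars are standard errors, and filled points passed at an adjusted p under 0.05. Lox and Serpinh1 (3.83 and 3.62) lie beyond every gene but P3h4 (4.19), and Furin lies at -1.35.

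Hypoxia response genes were counted because P4ha1 and Plod2 belong to the same known programme. Of 26 genes 16 were measured, and 7 were higher and 3 lower at 3 days. Their median log2 change was 0.34, against -0.08 over all probe sets, of which 18.9% were called higher. At 1, 2, 4 and 6 weeks the median was 0.04, 0.01, 0.08 and -0.12. At these times 5, 5, 4 and 2 genes were higher and 1, 2, 2 and 1 lower. Hif1a, whose protein is the oxygen-regulated part of hypoxia-inducible factor, was 5.71-fold higher in mRNA signal. Slc2a1, a glucose transporter, was 4.23-fold higher, Pdk1, which restrains pyruvate oxidation, 2.75-fold, and Pfkl, a glycolytic enzyme, 2.71-fold. Aldoa, another glycolytic enzyme, was 2.28-fold lower, and Vegfa, the vascular growth factor, had a log2 change of 0.57 (SE 0.40) and did not pass.

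Cell type markers changed after fracture as well, some lists up and others down. The sums add signals of different genes, weighted to the brightest, and serve only to set arrays against each other. The summed signal of 6 fibroblast markers lay between 4787 and 19552 without fracture and between 31047 and 39857 at 3 days, and 5 of the 6 passed as higher at every time after fracture. Of 5 bone markers 4 were higher at 3 days, with sums between 15966 and 43246 without fracture and between 36202 and 47348 at 3 days. Summed signals of 6 erythroid markers (45897 to 98596 intact, 4978 to 11930 at 3 days), 5 neutrophil markers (57450 to 77141, 1264 to 22969), 2 platelet markers (10153 to 14799, 1724 to 3752) and 11 skeletal muscle markers (128237 to 150876, 33301 to 48427) were lower at 3 days, with 6 of 6, 5 of 5, 2 of 2 and 10 of 11 called. For 5 cartilage markers the sums lay between 160 and 735 without fracture and between 2209 and 2651 at 3 days, with 2 of 5 called higher. Over all 8740 probe sets, 3437 were called in either direction at 3 days, 1652 of them higher. No marker was at the floor on all arrays. The part of cell make-up in the members' changes was not tested.

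The 5 members followed nearly one profile over the 18 arrays. Pearson's r between their log2 signals ran from 0.883 (P4ha1 with Pcolce) to 0.985 (Lox with Serpinh1), and that of Lox with Col1a1 was 0.758. Among 2480 genes with a mean signal of at least 200, the profiles most like Lox were those of Col5a1 (r = 0.992), Cgref1 (0.985) and Gpx7 (0.981). Col5a1 was also second for Serpinh1 (0.984, after Cgref1 at 0.987) and first for Pcolce (0.988). P4ha1 was closest to Lxn (0.98), Slc35b1 (0.977) and Cnpy2 (0.967), and Plod2 to Btd and Plcd1 (both 0.958) and P4hb (0.956). These values are a description: the points share the 3 intact arrays, which lie far from the rest, and the arrays share their scaling.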

How the data were processed

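Total RNA of the mid-shaft femur, pooled from 2 rats per array, was hybridised to 18 Affymetrix Rat U34A arrays. The deposited values are intensity signals per probe set, which the authors made with Microarray Suite 5.0 and scaled to an average of 500 on each array (2% trimmed mean); replicate arrays were not averaged.

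Of 8799 probe sets, 59 control probe sets were left out, leaving 8740. Of these, 7006 had 1 gene symbol, 308 several and 1426 none. Signals under 20 were set to 20 and log2 was taken. Changes were fitted over all 18 arrays in limma 3.58.1 (R 4.3.3), as the sum of a time and an age term (10 residual degrees of freedom) or with age by fracture (8), a trended variance prior and Benjamini-Hochberg adjustment over all probe sets; an adjusted p under 0.05 passed. Late against early compares 4 and 6 weeks with 3 days and 1 week. A further fit subtracted the leading Col1a1 probe set. The leading probe set of a gene is that with the highest mean log2 signal. Named genes were the 5 members, the collagen chains Col1a1, Col1a2, Col2a1, Col3a1, Col5a1 and Col5a2, and the 3 genes most like each member. Added to these were up to 6 genes per list with the largest changes among those that passed at 3 days. Furin, Loxl1, Col8a1 and Vegfa were named after their values were seen. The members and lists were chosen with earlier results of these data known. The scripts were tested on simulated data. The number of arrays limits the precision. Alternatives covered scaling, floor, filter, probe set, covariate, samples in the fit and left-out arrays.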

Additional observations from a re-analysis of the deposited data

Results flagged for a closer look

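The log2 response to fracture passed an age-by-fracture comparison in limma for 3 members, with errors that come from the fractured arrays alone; the spread between intact arrays of 1 age was not measured, so these values do not establish a difference between ages. In older against young rats the log2 response was larger by 2.98 for Lox, 3.10 for Serpinh1 and 2.61 for Pcolce. In adult against young rats it was larger by 2.62 for Lox, 3.49 for Serpinh1 and 2.08 for Pcolce. Each value rests on 1 intact array per age, and without one of these arrays the difference could not be estimated. The single young intact array had signals of 1350, 3947 and 1516 for the 3 genes, against 268, 460 and 415 on the adult and 189, 529 and 239 on the older intact array.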

How the results depend on the processing

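The number of members that passed, 5 of 5 at 3 days, 1, 2 and 4 weeks and 4 of 5 at 6 weeks, depended on which arrays set the spread. No alternative reversed the direction of a member's change that passed. Age differences that did not pass could change sign. In older against young rats the log2 difference went from -0.354 to 0.142 for Lox with the fractured arrays alone. It went from -0.318 to 0.198 for Serpinh1 and from -0.102 to 0.215 for Plod2, while P4ha1 and Pcolce kept their sign. When arrays or whole ages were left out, the counts ran from 3 to 5 at 3 days, from 0 to 5 at 1, 2, 4 and 6 weeks (over all probe sets, from 1742 to 3510, 1051 to 3279, 884 to 3026, 37 to 2255 and 46 to 1785 at the 5 times), from 0 to 1 for 1 week against 3 days, from 0 to 5 for late against early (1 with all arrays), from 0 to 5 relative to Col1a1 at both 3 days (5) and late against early (3), from 3 to 5 for the response in older against young rats (3) and from 3 to 4 in adult against young rats (3). At 6 weeks 1 member passed without the adult intact array or the adult 6-week array, and 2 without the older intact array or the older 6-week array. Late against early, 5 passed without the young intact array, 2 without the young rats, the adult 6-week array or the older intact array, and 0 without the adult or the older rats. The older against young response passed for 5 members without the young 6-week array, and late against early relative to Col1a1 for 5 without the young or the older intact array. In fits of only the times compared, which leave few degrees of freedom, 1 member passed at 3 days and 0 at 1, 2, 4 and 6 weeks. A plain t-test of the 3 arrays at each time against the 3 intact arrays, at 0.005 (which the methods set for comparing array pairs, not for this test) and after Benjamini-Hochberg adjustment alike, called 1 at 3 days, 1 at 1 week, 1 at 2 weeks, 0 at 4 weeks and 0 at 6 weeks. With the actin ratio as a covariate, 2 passed at 3 days, 2 at 1 week, 0 at 2 and 4 weeks, 0 late against early, and 0 at 3 days and 0 late against early relative to Col1a1. Late against early, 2 passed with median centring, 2 with log2(signal + 50), 3 with a filter at a mean signal of 200 and 5 with the fractured arrays alone. Relative to Col1a1, 0 passed late against early with quantile normalization and 5 with the mean of the 4 Col1a1 probe sets as reference. The fits of fractured arrays alone, the Col1a1 mean and the Col1a1 fit without variance moderation were chosen after seeing the data. The causes were not tested. Each age and time had 1 array. Age stood in every limma fit of time as a block, so that times were compared within ages, whereas the plain t-test left age out. Among single-gene values, 2246 kept their side of the threshold, 214 no longer passed and 35 newly passed.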
